A study of Canis lupus familiaris with 22 samples.

Results

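The detrusor, the smooth muscle coat of the bladder wall, is represented here by 9 genes for its receptors, ion channels and calcium and cyclic GMP signalling: CHRM2, CHRM3, P2RX1, KCNMA1, KCNMB1, CACNA1C, PLN, PDE5A and PRKG1. Each gene was read from the probe sets of the Affymetrix Canine 2.0 array whose platform annotation names it as the only gene symbol. These were 18 probe sets for the 9 genes, of 42924 probe sets and 15115 genes measured. Where a gene has several probe sets, their values were averaged in each sample. P2RX1, KCNMA1 and KCNMB1 have 1 probe set each.

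Expression was compared between 18 biopsies of canine invasive urothelial carcinoma (iUC), the muscle-invasive bladder cancer that arises naturally in pet dogs, and 4 samples of normal canine bladder. The iUC samples were high-grade tumors collected by cystoscopy from untreated dogs, and the normal bladder samples came from healthy dogs of similar age that bore no tumor. Each sample is 1 dog and 1 array, labelled as a biological replicate, and the comparison asks how gene expression in the cancer differs from that of normal bladder. A cystoscopic biopsy takes tissue from the luminal side, and the sources used here do not state how deep into the bladder wall the normal samples reach.

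The deposited values are on the log2 scale and are centred on the median of each probe set over all 22 arrays. A value of 0 is therefore the middle array, and a value of 1 is a signal 2-fold above it. Centred values hold no level, so neither the abundance of the members relative to each other nor their detection can be read from them. A gene was called when the adjusted p was 0.05 or below and the fold change was 2 or more. All adjusted p-values of single genes are from limma with Benjamini-Hochberg adjustment over all genes, or over all probe sets where a probe set is described.

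Detrusor muscle contracts when parasympathetic nerves release acetylcholine and ATP. Acetylcholine acts on muscarinic receptors and ATP on a receptor that is itself a cation channel, and calcium that enters through voltage-gated channels or leaves the stores then activates the contractile proteins. Large-conductance potassium channels, calcium reuptake into the sarcoplasmic reticulum and cyclic GMP oppose the contraction.

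Markers of the main tissue layers differed between the groups. Of 19 measured smooth muscle markers, 14 were lower and 0 higher in iUC, and their mean value lay between -0.49 and 1.04 in the iUC samples, against 3.03, 2.15, 3.28 and 3.63 in normal bladder samples 1 to 4. In the urothelium list 11 of 18 markers were higher and 0 lower in iUC. The mean of that list was between -1.25 and 0.68 in iUC, against -0.64, -0.29, -1.99 and -3.44 in normal bladder samples 1 to 4. Only normal samples 3 and 4 were thus below the iUC range. In the list for fibroblasts and interstitial cells 8 of 11 were lower and 1, PDGFRA, was higher. The part of these differences in the values of the 9 genes was not tested, apart from the comparison with the smooth muscle mean given after the members, and in bulk tissue fewer muscle cells and less RNA per muscle cell cannot be told apart. The iUC arrays also fell into 2 sets by 17 control probe sets named Tag, which averaged 0.277 to 0.46 on 7 of them and at most 0.131 on the other 11, with all 4 normal arrays in the lower set. The labels name no batch that matches these sets, and whether they differ by the handling of the arrays or by the tumors themselves cannot be told apart. Among the normal arrays the correlation over all probe sets was 0.934 for samples 3 and 4 and 0.426 for samples 1 and 2. The label ending, whose meaning the labels do not give, is the same for all iUC samples and normal sample 1 and another for normal samples 2 to 4.

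Of the 9 genes, 5 were called lower in iUC (P2RX1, KCNMB1, PLN, PDE5A and PRKG1), 0 were called higher and 4 (CHRM2, CHRM3, KCNMA1 and CACNA1C) were not called. Over all 15115 genes, 8.64% were called lower and 3.68% higher. For 3 of the 9, P2RX1, KCNMB1 and PLN, every iUC value was below every normal value, which held for 4.47% of all genes. The median log2 difference was -1.09 over the 9 genes and 0.08 over all genes. KCNMB1, P2RX1 and PDE5A also belong to a list that the study drew up partly from these samples, so their direction is not independent evidence. The same limit holds for GNAI1, HTR2B, ATP2A2, ATP2A3, GUCY1A2, NPR2, PRKAR2B, MYLK and PPP1R12A, which are named below and are on that list. Several smooth muscle markers, among them ACTA2, MYH11, CNN1 and DES, are on it too.

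**Figure D1:**
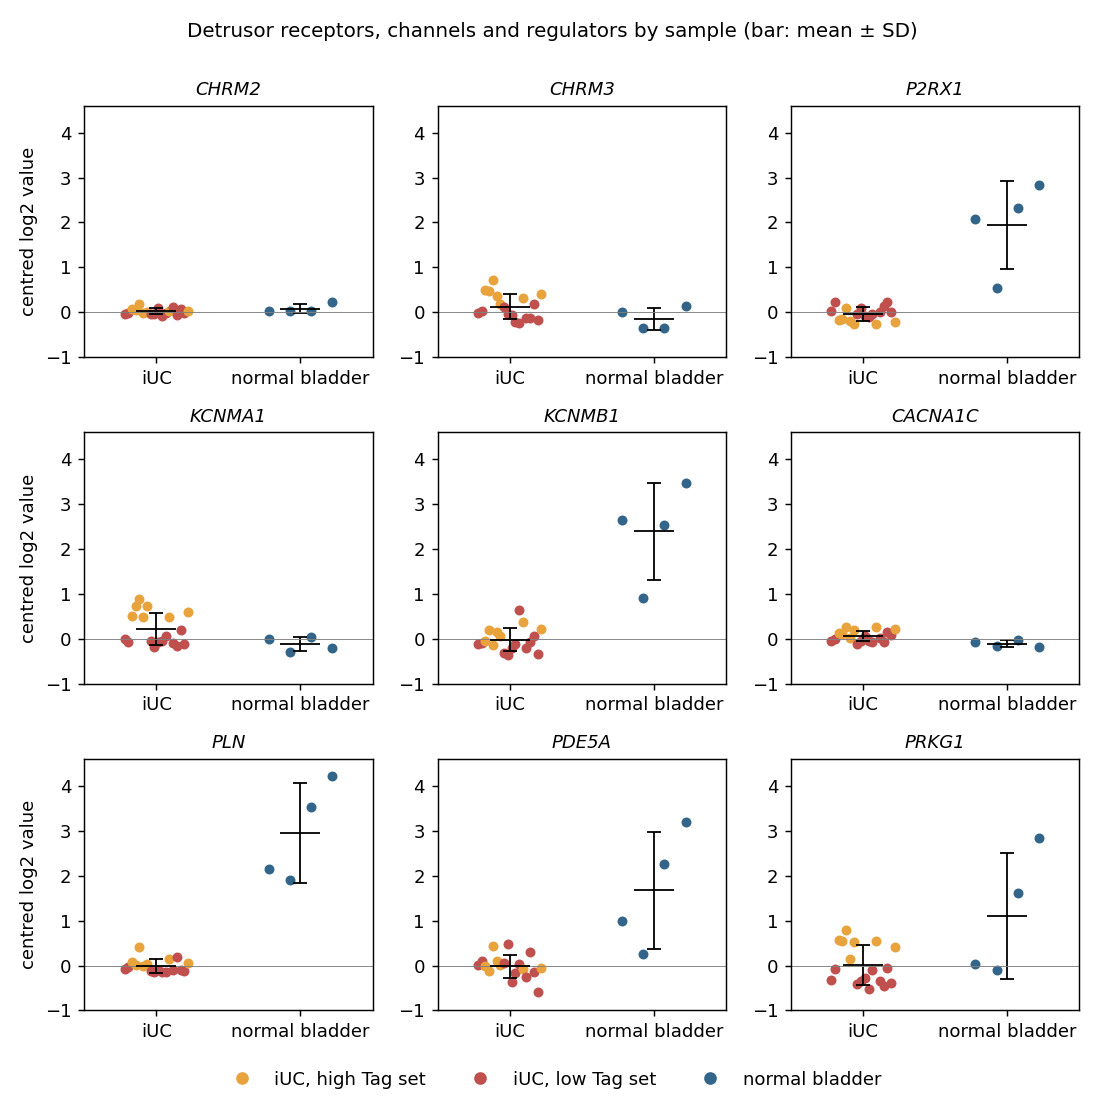
Centred log2 value of each of the 9 genes (vertical axis, log2 units) in the 18 iUC samples, left, and the 4 normal bladder samples, right; points are samples, coloured by group and, in iUC, by Tag set, and bars are the mean and SD of the group. The iUC values of P2RX1, KCNMB1 and PLN all lie below the lowest normal value, whereas those of CHRM2, CHRM3, KCNMA1 and CACNA1C overlap with the normal values.

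The muscarinic receptors did not pass the test. CHRM2, the inhibitory G protein-coupled M2 receptor, had a lowest, median and highest value of -0.08, -0.01 and 0.18 in iUC samples, against 0.02, 0.03, 0.03 and 0.22 in normal bladder samples 1 to 4. The groups overlapped, and normal sample 4 alone stood above the rest of its group. The log2 difference was -0.06 (SE 0.06, 95% confidence interval -0.18 to 0.06, adjusted p = 0.408). CHRM2 hardly varied over the 22 samples at all, with an SD of 0.0735 that places it at percentile 0.906 of all genes. Its 2 probe sets gave log2 differences of -0.09 and -0.02. Centred values cannot tell whether CHRM2 was detected.

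CHRM3, the M3 receptor, couples to Gq and phospholipase C and is the muscarinic receptor through which acetylcholine contracts the detrusor. Its values were -0.25, 0.07 and 0.73 (lowest, median, highest) in iUC and -0.01, -0.35, -0.35 and 0.13 in normal bladder samples 1 to 4. The values overlapped, with 8 of 18 iUC samples above the highest normal sample. The log2 difference of 0.27 (SE 0.15, 95% confidence interval -0.05 to 0.59, adjusted p = 0.163) was not called. It was 0.57 for the 7 iUC arrays of high Tag signal and 0.08 for the 11 of low Tag signal, each set against the same 4 normal samples. Of its 2 probe sets, 1 was higher in iUC by 0.29 (adjusted p = 0.0136), which is under 2-fold, and the other gave 0.25 (adjusted p = 0.445).

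P2RX1, the P2X1 receptor, is the ATP-gated cation channel of detrusor muscle and is also known from platelets. It read -0.26, -0.05 and 0.23 (lowest, median, highest) in the iUC samples, against 2.07, 0.54, 2.31 and 2.83 in normal bladder samples 1 to 4. All 18 iUC samples were below the lowest normal sample, which was normal sample 2. P2RX1 was 3.96-fold lower in iUC (log2 difference -1.98, SE 0.22, adjusted p = 7.11e-07). Platelet markers were measured for 3 genes, of which 1, PPBP, was lower at a log2 difference of -3.29 and 0 were higher. The mean of these 3 was between -0.22 and 0.19 in iUC, against 1.92, 0.73, 1.33 and 1.04 in normal bladder samples 1 to 4. In normal samples 2 to 4 this mean rests mainly on PPBP, at 2.64, 3.55 and 3.14. GP9 read -0.06, 0.12 and 0.04 there, and ITGA2B -0.37, 0.33 and -0.07. The part of these markers in the P2RX1 difference was not tested.

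The subunits of the large-conductance calcium-activated potassium channel gave different results. KCNMA1, which forms the pore and is expressed in many tissues, had values of -0.17, 0.03 and 0.88 (lowest, median, highest) in iUC and 0.00, -0.29, 0.05 and -0.21 in normal bladder samples 1 to 4. The groups overlapped, and the log2 difference was 0.33 (SE 0.18, 95% confidence interval -0.05 to 0.71, adjusted p = 0.153). The high values were those of the arrays with high Tag signal, at 0.49 to 0.88, against -0.17 to 0.19 on the arrays with low Tag signal. Among the 9 genes KCNMA1 and PRKG1 did not overlap between these array sets, both higher in the high set, as was the case for 15.9% of all genes (28.7% in either direction). Against the normal samples the log2 difference of KCNMA1 was 0.75 with the high set and 0.07 with the low set.

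KCNMB1 encodes the smooth muscle beta1 subunit, which raises the calcium sensitivity of that channel. Its values were -0.35, -0.08 and 0.64 (lowest, median, highest) in iUC samples, against 2.65, 0.91, 2.53 and 3.48 in normal bladder samples 1 to 4. The groups did not overlap, although the gap between the highest iUC sample and normal sample 2 was small. KCNMB1 was 5.31-fold lower in iUC (log2 difference -2.41, SE 0.26, adjusted p = 4.37e-07).

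The difference KCNMB1 minus KCNMA1 within a sample averaged -0.23 ± 0.34 in iUC (SD, n = 18) and 2.51 ± 1.02 in normal bladder (SD, n = 4). The difference between the groups was -2.74 on the log2 scale, with a two-sided exact permutation p of 0.000137, the smallest that the 7315 permutations can give, and an adjusted p of 0.00041 over the 3 pairs compared. The beta1 subunit differed between the groups more than the pore subunit did. Both genes rest on a single probe set.

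CACNA1C forms the pore of the L-type voltage-gated calcium channel, the main route of calcium entry in detrusor muscle. It had values of -0.11, 0.04 and 0.27 (lowest, median, highest) in iUC, against -0.06, -0.16, -0.03 and -0.19 in normal bladder samples 1 to 4. The range was narrow, and 12 of 18 iUC samples were above the highest normal sample. The iUC arrays of high Tag signal ran from 0.01 to 0.27, all above the normal samples, and those of low Tag signal from -0.11 to 0.15. The log2 difference was 0.18 (SE 0.07, 95% confidence interval 0.02 to 0.33, adjusted p = 0.0698). Against the same normal samples CACNA1C differed by 0.29 with the high set alone and by 0.10 with the low set alone. Its 3 probe sets gave 0.24, 0.31 and -0.03, with adjusted p-values of 0.0183, 0.0579 and 0.774 over all probe sets, and none reached a fold change of 2.

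PLN, phospholamban, restrains the calcium pump of the sarcoplasmic reticulum until it is phosphorylated. Its values were -0.15, -0.05 and 0.42 (lowest, median, highest) in iUC samples, against 2.15, 1.92, 3.53 and 4.23 in normal bladder samples 1 to 4. The groups were far apart, and normal sample 4 again had the highest value. PLN was 7.81-fold lower in iUC (log2 difference -2.97, SE 0.24, adjusted p = 8.84e-09), the largest difference of the 9 genes and number 94 from the lowest of 15115. Its probe sets disagreed in size: the log2 differences were -4.79 and -3.71 for 2 of them, whose groups did not overlap, and -0.40 for the last, which had an adjusted p of 0.00172 but was under 2-fold.

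PDE5A and PRKG1 have opposite roles in cyclic GMP signalling. PDE5A, phosphodiesterase 5, degrades the messenger, and PRKG1, cyclic GMP-dependent protein kinase 1, carries its relaxing signal. PDE5A had values of -0.60, 0.00 and 0.48 (lowest, median, highest) in iUC, against 1.00, 0.26, 2.26 and 3.19 in normal bladder samples 1 to 4. The groups overlapped at normal sample 2, below which 15 of 18 iUC samples lay. PDE5A was 3.23-fold lower in iUC (log2 difference -1.69, SE 0.30, adjusted p = 0.000205). Of its 3 probe sets, 2 were called, at -1.93 and -2.64, and the last, at -0.50, was not (adjusted p = 0.0872).

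PRKG1 had values of -0.52, -0.09 and 0.79 (lowest, median, highest) in iUC, against 0.04, -0.09, 1.61 and 2.85 in normal bladder samples 1 to 4. Only normal samples 3 and 4 were above all iUC samples, and 9 of 18 iUC samples were below the lowest normal sample. The log2 difference was -1.09, or 2.13-fold lower in iUC (SE 0.36, adjusted p = 0.0231). The call was lost without normal sample 3 (-0.92, adjusted p = 0.107) and without normal sample 4 (-0.51, adjusted p = 0.224), and the difference was -0.03 with the label ending as a block, a fit that sets the iUC samples against normal sample 1 alone. The iUC arrays of high Tag signal ran from 0.14 to 0.79 and those of low Tag signal from -0.52 to -0.05. Of the 2 PRKG1 probe sets, 1 was called at -1.75 (adjusted p = 0.0102), with values of 0.07, 0.09, 3.03 and 3.93 in normal samples 1 to 4, and the other was not, at -0.43 (adjusted p = 0.19).

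**Figure D2:**
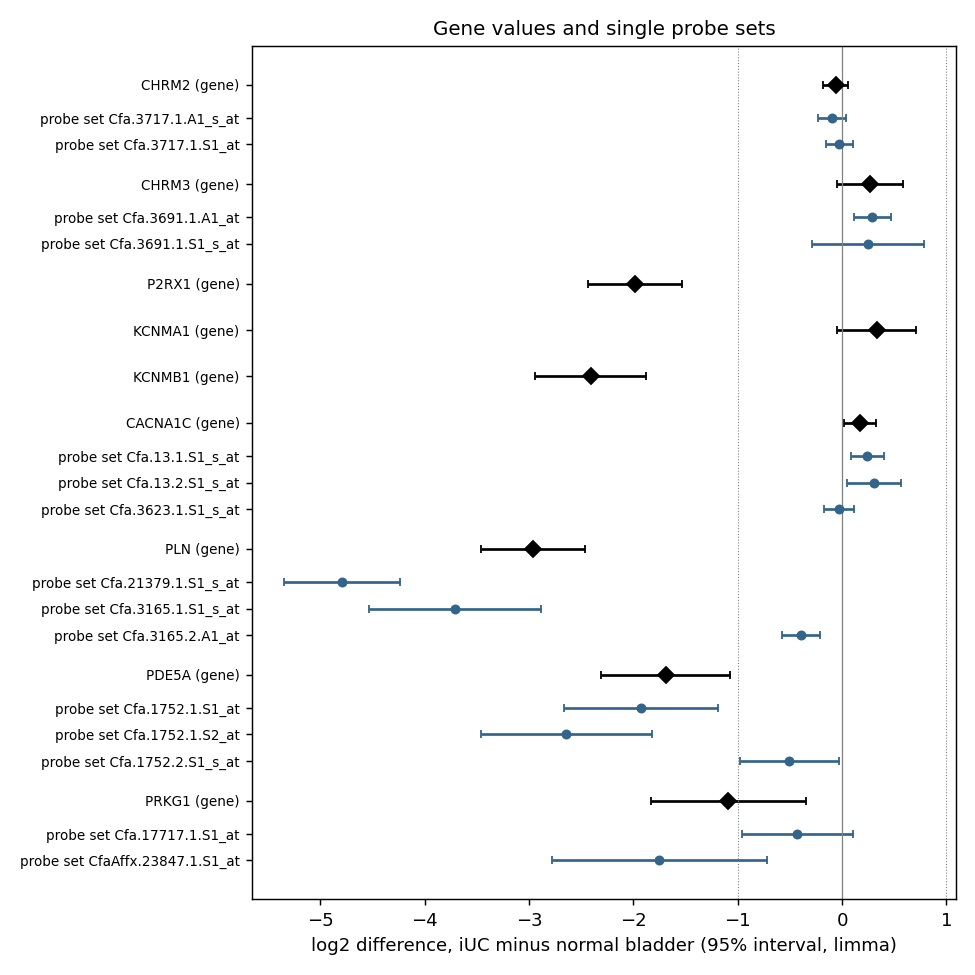
Log2 difference, iUC minus normal bladder (horizontal axis, log2 units), of each of the 9 genes (diamonds) and of the single probe sets of genes that have several (circles), with 95% confidence intervals from limma. The solid line marks 0 and the dotted lines a 2-fold change. PLN has the largest difference at -2.97, and its probe sets range from -4.79 to -0.40.

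The pair differences of the receptors and of the cyclic GMP genes were less stable than that of the channel subunits. CHRM2 minus CHRM3 averaged -0.11 ± 0.25 in iUC (SD, n = 18) and 0.22 ± 0.19 in normal bladder (SD, n = 4), a difference of -0.33 with an exact permutation p of 0.0226 (adjusted 0.0226). The adjusted p was 0.088 without normal sample 2, 0.0872 without normal sample 3 and 0.109 without the high Tag iUC arrays. PDE5A minus PRKG1 averaged -0.03 ± 0.46 in iUC (SD, n = 18) and 0.57 ± 0.29 in normal bladder (SD, n = 4), a difference of -0.60 with an exact permutation p of 0.0215 (adjusted 0.0226). That adjusted p was 0.102 without normal sample 1, 0.0733 without normal sample 3 and 0.109 without the high Tag iUC arrays.

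At the level of probe sets, 7 of the 18 were called lower in iUC and 0 higher. Over all probe sets, 10.7% were called lower and 3.9% higher. The values did not overlap between groups for 4 of the 18, all lower in iUC (P2RX1, KCNMB1 and 2 of PLN), and 4.27% of all probe sets were in that position. Normal sample 4 had the highest and normal sample 2 the lowest value of the 4 normal samples in P2RX1, KCNMB1, PLN, PDE5A and PRKG1, and the same samples were highest and lowest in the smooth muscle mean. Where the label ending was a block, the estimate is the iUC mean minus normal sample 1, the only normal sample that shares its ending with the iUC samples, and this lone sample is assumed to vary like the others. The log2 differences were then -2.12 for P2RX1 (adjusted p = 0.00289), -2.66 for KCNMB1 (adjusted p = 0.00142), -2.16 for PLN (adjusted p = 0.00202) and -1.02 for PDE5A (adjusted p = 0.59).

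The members were next set against that mean on the same array. Each gene minus the mean of the 19 smooth muscle markers was compared between groups, so that a value of 0 is a difference equal to that of the markers. By this measure 98.1% of all genes were called higher in iUC and 0.185% lower, since the markers themselves were lower there. PLN differed by 0.11 from the markers (95% confidence interval -0.39 to 0.60, adjusted p = 0.666), and all 18 iUC values lay within the range of the normal values. This rests on averages on both sides. The PLN probe sets gave -4.79, -3.71 and -0.40, and their median in each sample gave -3.72 in place of -2.97. Single markers differed by between -6.11 (MYL9) and 0.19 (MYOCD). The comparison with the markers was not repeated with another summary of the probe sets. KCNMB1 differed by 0.66 (95% confidence interval 0.15 to 1.18, adjusted p = 0.0141), which is under 2-fold. The other 7 genes were called higher, which says no more than that they differed less than the markers. The subtraction moves the difference of every gene by the same amount, so the order of the members is that given above, and what it adds is the interval of PLN and of KCNMB1 around the difference of the markers.

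**Figure D3:**
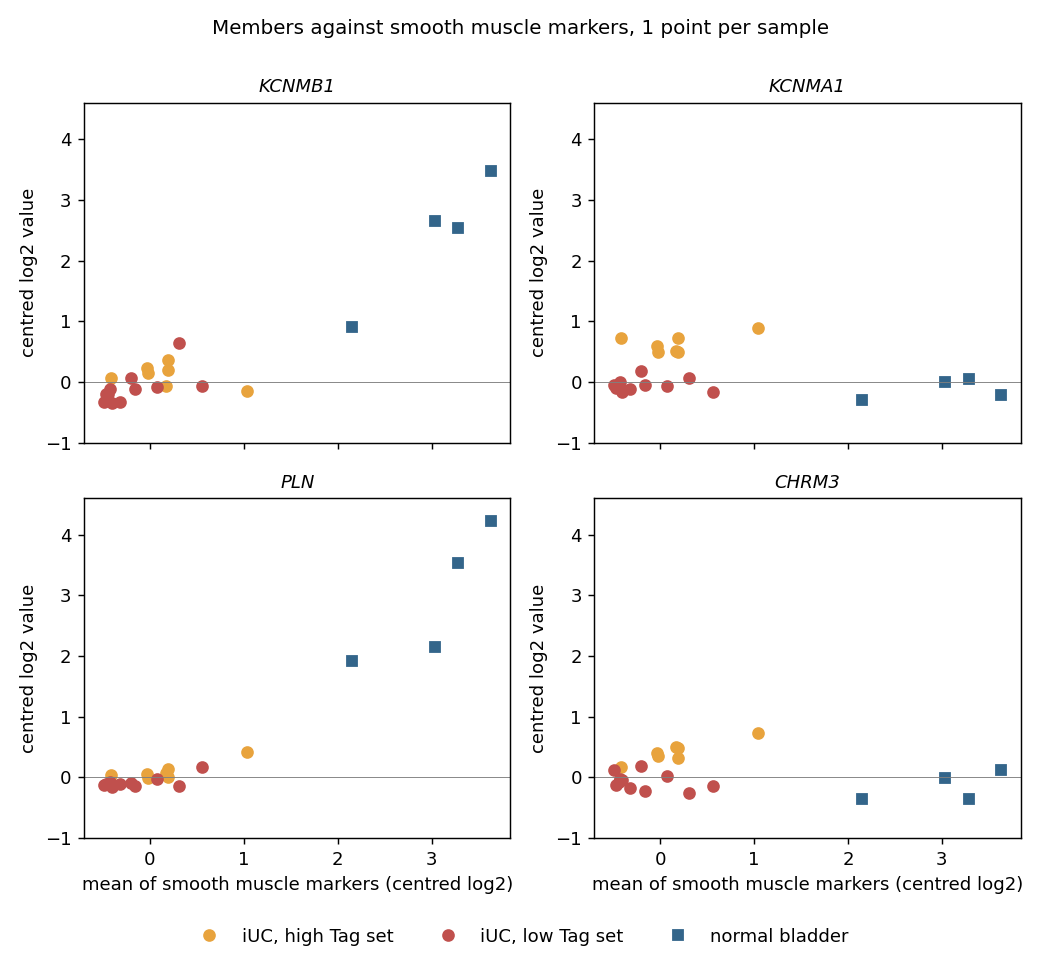
Centred log2 value of KCNMB1, KCNMA1, PLN and CHRM3 (vertical axes, log2 units) against the mean of 19 smooth muscle markers on the same array (horizontal axis, log2 units); circles are iUC samples, coloured by Tag set, and squares are normal bladder samples. The normal samples stand at 2.15 to 3.63 on the horizontal axis and the iUC samples at -0.49 to 1.04.

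Within the iUC samples the relation of each gene to the smooth muscle mean was examined separately in the 7 arrays of high and the 11 of low Tag signal, which makes 18 relations. After adjustment 0 passed at 0.05, and 6 had an unadjusted permutation p below 0.05 by Pearson's r and 1 by Spearman's rho. In the high set r was 0.921 for CHRM2, 0.93 for CHRM3, 0.913 for P2RX1 and 0.871 for PLN (n = 7, exact permutation, adjusted p = 0.114 to 0.142), with rho of 0.75, 0.571, 0.643 and 0.607 in the same order (adjusted p = 0.529 to 0.549). Without the 2 samples farthest from the median of the smooth muscle mean, which include iUC sample 5, r was 0.705 for CHRM2, 0.347 for CHRM3, 0.114 for P2RX1 and 0.41 for PLN. The relations of CHRM3, P2RX1 and PLN rest on those samples, and 5 samples remain. For KCNMB1 r was -0.461 in the high set (n = 7, exact permutation, adjusted p = 0.386). Of the receptors, the low set gave r of -0.359 for CHRM2, -0.356 for CHRM3 and 0.347 for P2RX1 (n = 11, permutation, adjusted p = 0.386 for each). In the low set KCNMB1 had r = 0.622 and rho = 0.7 and PLN had r = 0.68 and rho = 0.209 (n = 11, permutation, adjusted p of r 0.148 and 0.142, of rho 0.356 and 0.809), and r was 0.553 and 0.551 without the 2 farthest samples.

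Genes with the most similar pattern were sought among 15114 others over the 18 iUC samples, with the Tag sets each centred on their own mean. PLN had MYH11, smooth muscle myosin heavy chain, at r = 0.962 and CNN1, calponin, at r = 0.917, both among the smooth muscle markers. Without iUC samples 5 and 15, which had the highest smooth muscle means of the iUC samples, these were 0.792 and 0.349. KCNMB1 was nearest to SULF1, an extracellular sulfatase, at 0.881 and POSTN, the matrix protein periostin, at 0.861, and without iUC samples 12 and 13 the values were 0.664 and 0.401. P2RX1 was nearest to SMARCD3 at 0.868, a chromatin remodelling subunit, which was also called lower in iUC, at -2.53, and to LRRC14B at 0.822. CHRM2 was nearest to LEPR and EXOSC6, CHRM3 to GLYATL3 and NYNRIN, KCNMA1 to VAT1L and ZNF572, CACNA1C to ASB16 and MGAM, PDE5A to TAL1 and LOC491432, and PRKG1 to HIVEP1 and DENND2A, with r between 0.846 and 0.926. Without the 2 samples farthest from each member's median, these ran from 0.681 (KCNMA1 with ZNF572) to 0.901 (PRKG1 with DENND2A). For P2RX1, r was then 0.782 with SMARCD3 and 0.77 with LRRC14B. These correlations are the highest of many and describe 18 arrays only.

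The wider pathways were described by 7 lists with 131 measured genes, of which 18 were called lower and 4 higher in iUC. That is 16.8% called, against 12.3% of all genes. Without normal sample 3, and likewise without normal sample 4, 13 of the 131 were called, beside 8.69% and 8.37% of all genes. The median of each list but that for myosin light chain phosphorylation lay within 0.13 of 0.

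Of 24 genes for other muscarinic receptors and G protein signalling, 2 were lower and 1 higher in iUC, with a list median of 0.06. The receptors CHRM1 (0.29), CHRM4 (0.30) and CHRM5 (0.35) had adjusted p-values of 0.157, 0.029 and 0.0222 at under 2-fold. GNAI1 and GNAI2, alpha subunits of the inhibitory G proteins to which the M2 receptor couples, were lower by log2 differences of -3.24 and -1.64, and ITPR3, an inositol trisphosphate receptor of the calcium stores, was higher by 1.07. Of 18 other purinergic receptors and enzymes of ATP breakdown 0 were called by limma and 0 by the methods' t-test, while 6 had an unadjusted limma p below 0.05. The count was 3 with array weights and 3 without the low Tag iUC arrays, 1 with a block for the replicate number, 1 with a block for the label ending, and 0 in the other alternatives run. The ATP receptors P2RX7 (0.81) and P2RX3 (0.29) and the ADP receptor P2RY12 (-0.41), picked out after their values were seen, had adjusted p-values of 0.0172, 0.0452 and 1.98e-05 at under 2-fold. The list median was 0.13. Over all genes 15.9% were called with array weights, 24.5% without the low Tag iUC arrays and 3.73% with a block for the replicate number.

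Other receptors of detrusor muscle gave 4 lower and 0 higher of 16, with a median of -0.04. They were the serotonin receptors HTR2B (-2.38) and HTR2A (-1.31), of which HTR2A is outside the 3 largest differences, and the prostaglandin E receptors PTGER4 (-2.11) and PTGER3 (-1.72). Among 18 other potassium channel genes 3 were lower and 0 higher, with a median of 0.10: the voltage-gated channel KCNA5 (-1.10) and the small-conductance calcium-activated channels KCNN3 (-1.02) and KCNN2 (-1.01). All 3 were just past 2-fold, and none of the 18 was called without normal sample 3 or without normal sample 4. The shares of all genes called were then 8.69% and 8.37%.

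Calcium channels and store proteins gave 3 lower and 3 higher of 24, with a median of -0.09. CACNB3, an auxiliary subunit of voltage-gated calcium channels, was lower by a log2 difference of -2.25, and ATP2A2, the calcium pump that PLN restrains, by -1.82, whereas ATP2A3, a related pump, was higher by 1.77. Without normal sample 3 the list held 3 called genes, and without normal sample 4 also 3, beside 8.69% and 8.37% of all genes.

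In nitric oxide and cyclic nucleotide signalling 4 of 22 genes were lower and 0 higher, with a median of 0.05. GUCY1B1 (-1.61) and GUCY1A2 (-1.21) encode subunits of the soluble guanylate cyclase that makes cyclic GMP, NPR2 (-1.44) is a membrane guanylate cyclase, and PRKAR2B (-1.20), which is outside the 3 largest differences, is a regulatory subunit of the cyclic AMP-dependent kinase. Of 9 genes of myosin light chain phosphorylation 2 were lower and 0 higher, with a median of -0.34. MYLK, the kinase that switches on smooth muscle myosin, had a log2 difference of -5.60, and PPP1R12A, a targeting subunit of the opposing phosphatase, one of -2.51.

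**Figure D4:**
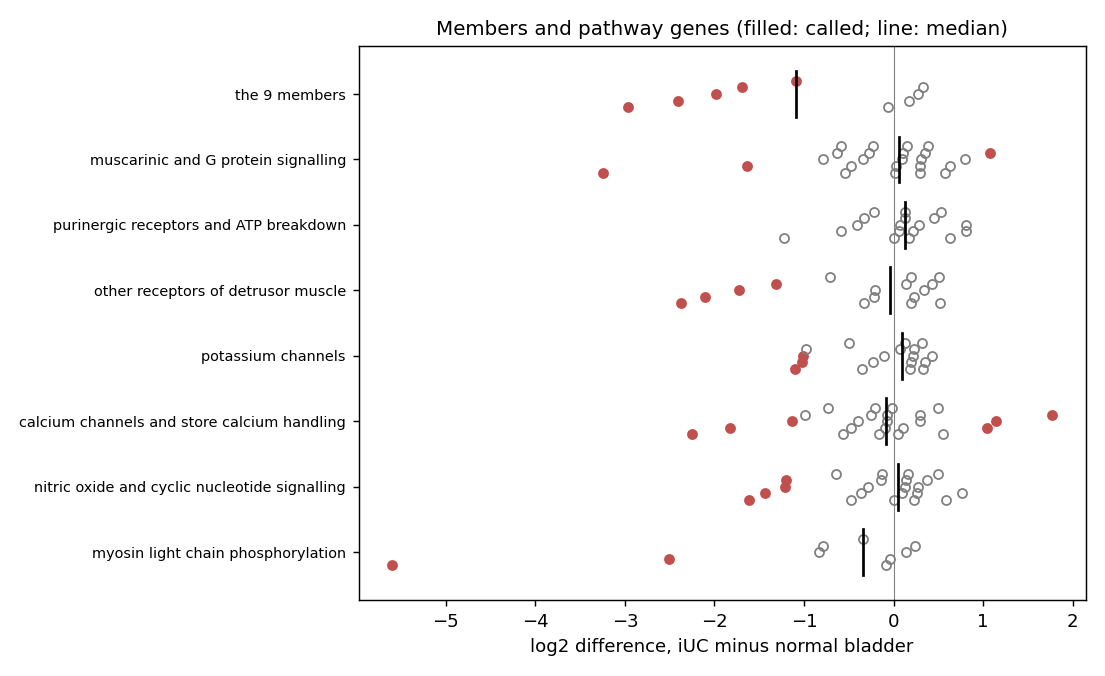
Log2 difference, iUC minus normal bladder (horizontal axis, log2 units), of every measured gene of the 7 pathway lists and of the 9 members; each point is a gene, filled where it was called, and the short vertical line is the median of the list. Most genes lie near 0, with MYLK farthest below at -5.60.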

How the data were processed

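Gene expression was measured in 18 iUC and 4 normal bladder samples on Affymetrix Canine 2.0 arrays, from 5 µg of total RNA. The authors processed the arrays in GeneSpring and deposited log2 values of 43035 probe sets, each centred on its median over the 22 arrays (within 5e-07 of 0). The sources used here do not state the probe summarisation or the normalization. After 111 Affymetrix controls were left out, 29254 probe sets had 1 gene symbol, 439 several and 13231 none. Entrez numbers of 27680 were found in a RefSeq gene table, and 0 symbols changed.

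Genes (mean of their probe sets) and probe sets were tested in R 4.3.3 with lmFit and eBayes of limma 3.58.1, without covariates or a filter on low values. Pair differences and correlations were tested by permutation with Python 3.11 and numpy 2.4.6, exactly for pairs and for 7 samples and with 100000 resamples for 11. The code was tested on simulated data. Array medians lay between -0.03 and 0.06, and the number of samples limits the precision.

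The members and the lists were chosen with earlier results of these data known. Named genes were the 9 members, the 2 genes most correlated with each, the called genes with the 3 largest differences of each pathway list (HTR2A and PRKAR2B were added after their values were seen), and markers where a result turned on them. Lists without a result in the report are those for nerve, endothelium, pericytes and leukocytes, which are given under the other observations. Alternatives were quantile normalization, 75th percentile scaling, array weights, an unpaired t-test with each gene's own variance and other summaries of probe sets. Further alternatives were leaving out samples or array sets, normal samples 3 and 4 averaged, and blocks for replicate number and label ending.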

Additional observations from a re-analysis of the deposited data

Results flagged for a closer look

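CHRM2 in normal bladder replicate 4 had a centred log2 value of 0.218, against 0.0224 to 0.0335 in the other 3 normal samples. The gap to the nearest of them was 0.943 of the range of the group, which is larger than Dixon's limit for 4 samples. It was the 1 value singled out among 28 groups of 4 normal samples checked, for genes and probe sets, and chance singles out about 1 in 20. The value came mainly from 1 of the 2 CHRM2 probe sets, which read 0.35 in that sample, against 0.09 for the other.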

How the results depend on the processing

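The count of 5 members called stayed at 4 or 5 in all alternatives except 3: it was 2 with only the probe sets that lack an s, x or a suffix (P2RX1, KCNMA1, KCNMB1 and CACNA1C have none), 2 with the replicate block and 3 with a block for the label ending. The corresponding counts over all genes, 1862 as reported, were 726 after quantile normalization, 564 with the replicate block, 404 with a label ending block and 3705 without the low Tag iUC arrays. Of all calls 29.9% were higher in iUC as reported, 40.6% after quantile normalization and 42.8% after 75th percentile scaling, which moved the median of all genes by 0.117. That share was 44.2% with array weights, 46.7% without the high Tag iUC arrays, 3.71% with a label ending block, which sets the iUC samples against normal sample 1 alone, and 23.6% to 38.1% in the other alternatives. Calls in the pathway lists, 22 as reported, were 11 after quantile normalization, 13 with normal samples 3 and 4 averaged, 6 with the replicate block, 4 with a label ending block and 13 to 25 when 1 normal sample was left out. Member probe sets called, 7 as reported, were 1 with the replicate block and 3 with a label ending block.

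KCNMB1 kept its call in every alternative that measured it, and PLN in all but that without suffixed probe sets (-0.40). P2RX1 and PDE5A lost theirs with the replicate block (-1.96, adjusted p = 0.0734, and -1.68, adjusted p = 0.11), and PDE5A also with a label ending block (-1.02). PRKG1 lost its call after quantile normalization (-0.77), after 75th percentile scaling (-0.97), with normal samples 3 and 4 averaged (-0.71), with the replicate block (-0.92) and without the low Tag arrays (-0.60), beside the cases in the report. CHRM2 turned to 0.057 under 75th percentile scaling, and PLN relative to the smooth muscle mean to -0.17 without normal sample 1 (range -0.17 to 0.33 with 1 normal sample left out); neither was called in any of these. CHRM2 minus CHRM3 was -0.39 to -0.27 and PDE5A minus PRKG1 -0.68 to -0.47 with 1 normal sample left out, and -0.16 and -0.33 without the high Tag arrays. After quantile normalization 4 relations with the smooth muscle mean passed. The causes were not tested.

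Replicate numbers did not pair the samples: deviations of same-numbered samples correlated at -0.166, 0.055, -0.0531 and 0.131, and 1 of 4 iUC samples correlated best with its own number. The replicate block, which uses 4 iUC samples, gave 2 members called (KCNMB1 and PLN). The unpaired t-test with each gene's own variance called 1802 genes after Benjamini-Hochberg adjustment and the same count of 5 members. By the rule for a call, differences under 2-fold gave none, whatever their adjusted p. For CACNA1C, for example, the adjusted p was 0.0698 by limma as reported, 0.0406 by the unpaired t-test and 0.00352 by limma after 75th percentile scaling. The arrays of the 4 normal samples differ among themselves, and without levels no member can be called absent.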

Other observations

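Markers of 4 further cell types of the bladder wall were counted beside the 12.3% of all genes that were called. Of 12 measured markers of nerve and glia 1, UCHL1, was lower in iUC (log2 difference -1.12) and 0 were higher, with a list median of 0.05. Of 9 endothelial markers 3 were lower (EMCN -2.33, KDR -1.46 and CLDN5 -1.03), and of 8 pericyte markers 1, MCAM, was lower (-1.55). Of 12 leukocyte markers 2 were lower, the lysozyme gene LYZ (-3.39) and the macrophage scavenger receptor CD163 (-1.16). None of these 4 lists had a gene called higher. The pericyte list shares KCNJ8 and ABCC9 with the potassium channels and RGS5 with the muscarinic list.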
